A study of Homo sapiens with 36 samples.

Results

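Endogenous protease inhibitors were examined in 2 human acute myeloid leukaemia cell lines treated with A9, a compound of the PROTAC class, which brings a target protein to a ubiquitin ligase so that the proteasome degrades it. The 10 genes were SLPI, the serpins SERPINA1, SERPINB1, SERPINB2, SERPINB6 and SERPINB8, and the cystatins CSTA, CSTB, CST3 and CST7, out of 35472 gene symbols with a value. They were picked by name with their values under A9 and DMSO in view, and the different behaviour of SLPI in both lines was part of the choice. Their values under A9 against DMSO are therefore given as a description, without a test.

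The lines were MOLM-13 and MONO-MAC-6, both grown from leukaemias of the monocytic kind and labelled WT. The labels name no engineered allele in any group; both lines are known to carry a KMT2A-MLLT3 fusion, which all groups therefore share. Cells received either DMSO, the solvent, or A9 for 72 h, at 0.125 µM in MOLM-13 and at 0.25 µM in MONO-MAC-6. The series' design text names the degraded proteins as the kinase IKK2 and the nuclear receptor NR4A1, while its title names IKK1 in place of IKK2. A9 acts on proteins, so the mRNA of its targets is no check of the labels. RNA was sequenced in bulk, in 36 libraries, and libraries sharing a line, a treatment and a first replicate number were averaged to 3 samples per group, 12 in all. Nothing in the labels says that these samples came from separate cultures, so a p-value measures the spread between the samples, which may be technical. Line, dose and the table that holds the values change together and cannot be told apart.

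Proteases that cells store in granules and lysosomes are held in check by inhibitors from several families. SLPI is a small secreted inhibitor with WAP domains that blocks neutrophil elastase and cathepsin G. Serpins trap serine proteases by a change of shape, and those of clade B work mostly inside cells, where they guard the cytosol against proteases that leak from granules. Cystatins are tight-binding inhibitors of cysteine cathepsins: CSTA and CSTB stay in the cytosol, CST3 is secreted, and CST7 reaches lysosomes, where it acts on cathepsin C, the enzyme that activates the granule serine proteases. Myeloid cells make both the proteases and the inhibitors, and their levels change as the cells mature.

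Levels are given as TPM, transcript abundances scaled to a fixed total per library and corrected for transcript length, so that levels can be compared between genes. TPM keep no read counts: the depth behind each value is unknown, and counting intervals cannot be given. Each library summed to 1000000, with 86918 to 105082 transcripts above 0. Sample 1 of MONO-MAC-6 DMSO stood apart from the rest of its line: its correlation with the other 5 samples was 0.9444 to 0.9672 over 9132 genes. Results of that line are therefore also given without it for many of the genes named. In bulk RNA, fewer cells that express a gene and less RNA per cell cannot be told apart. Of 10 myeloid markers, the mean reached 1 TPM for 7 in MOLM-13 DMSO, 8 in MOLM-13 A9 and 9 in each MONO-MAC-6 group; ANPEP was at most 0.0382 TPM and CD14 at most 0.491 TPM in MOLM-13. The summed TPM of the myeloid markers was 692.2 to 747.3 in MOLM-13 DMSO, 907.2 to 1031.8 in MOLM-13 A9, 3768.7 to 4292.3 in MONO-MAC-6 DMSO and 8417.5 to 8709.9 in MONO-MAC-6 A9, with LYZ, the lysozyme gene, as the largest term in MONO-MAC-6. Among markers of other cells, CD3E, MS4A1 and HBB were listed at 0 in every group.

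Promoter sequences from RefSeq (GRCh38.p14, 250 bases before to 50 after a start site) were at hand for 6 of the 10 genes, in 10 windows. Those of 3 serpins are shown. SERPINB2 and SERPINB8 had higher means with A9 in both lines, as did SERPINA1, SERPINB1, SERPINB6 and CST3, which also had windows. SERPINB6 differed most between the lines among the inhibitors that could be tested. The windows are SERPINB2 at chr18:63887455-63887754 on the plus strand, SERPINB8 at chr18:63969831-63970130 on the plus strand, and SERPINB6 at chr6:2971518-2971817 on the minus strand, each written 5′ to 3′ in the direction of its gene. Capitals mark matches on either strand to AP-1 (TGANTCA), C/EBP (TTGCNNAA), PU.1 (AGGAAGT), the TATA box (TATAAA) or the NF-kB motif.
SERPINB2: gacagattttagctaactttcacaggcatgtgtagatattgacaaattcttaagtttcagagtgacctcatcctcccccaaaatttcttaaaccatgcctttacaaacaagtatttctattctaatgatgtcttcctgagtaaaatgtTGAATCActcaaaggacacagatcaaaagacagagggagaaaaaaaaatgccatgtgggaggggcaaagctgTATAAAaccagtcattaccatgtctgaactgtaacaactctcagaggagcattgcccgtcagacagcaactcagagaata
SERPINB8: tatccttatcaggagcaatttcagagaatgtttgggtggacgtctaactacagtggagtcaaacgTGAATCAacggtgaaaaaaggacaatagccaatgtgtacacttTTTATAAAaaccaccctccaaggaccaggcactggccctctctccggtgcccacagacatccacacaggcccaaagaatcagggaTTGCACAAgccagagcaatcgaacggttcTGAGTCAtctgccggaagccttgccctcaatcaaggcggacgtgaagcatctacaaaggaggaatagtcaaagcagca
SERPINB6: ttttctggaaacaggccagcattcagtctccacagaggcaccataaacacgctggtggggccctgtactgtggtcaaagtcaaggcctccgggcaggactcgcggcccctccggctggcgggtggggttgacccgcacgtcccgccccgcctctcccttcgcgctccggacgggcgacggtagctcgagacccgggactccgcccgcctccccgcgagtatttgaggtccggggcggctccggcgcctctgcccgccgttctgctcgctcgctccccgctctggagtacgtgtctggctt
The SERPINB2 window held an AP-1 match at position -102 and a TATA box at position -30 from the start site. The SERPINB8 window held AP-1 matches at -185 and -28, a C/EBP match at -57, and TATA letters on both strands that overlapped each other, at -142 and -140. In the SERPINB6 window shown, which lies at the start of the leading SERPINB6 transcript of MONO-MAC-6, none of these letters was found. RefSeq gives 3 further windows for SERPINB6, and the one at start site 2962130 has TATAAA at position -1. Among 35116 promoter windows of the same length, 7.71% held the AP-1 letters, 10.5% C/EBP, 8.24% PU.1, 11.5% TATAAA and 11.3% NF-kB. The SERPINB2 window had 1 CpG, SERPINB8 had 9 and SERPINB6 had 32, against a median of 14 over all windows. The windows of SERPINB1 and CST3, not shown, held none of these letters, and those of SERPINA1 held a PU.1 match and no AP-1. A match describes letters and not a bound factor, and whether matches go with the A9 values was not tested.

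SLPI (ENSG00000124107, chr20:45252239-45254564 on the minus strand, GRCh38) was scarce in MOLM-13 and abundant in MONO-MAC-6, and A9 went with opposite shifts. In MOLM-13 its level was 1.39, 2.98 and 2.91 TPM in the DMSO samples and 4.44, 3.69 and 5.76 TPM with A9. Every A9 sample lay above every DMSO sample, and the 3 libraries of DMSO sample 1 ran from 0.664 to 2.02 TPM. In MONO-MAC-6 the level was 290.7, 197.9 and 205.6 TPM with DMSO and 136.7, 127.7 and 137.9 TPM with A9. Here every A9 sample lay below every DMSO sample, and sample 1 of DMSO was the highest. On the scale of log2(TPM + 1) used for all differences, A9 minus DMSO came to 0.74 (SE 0.25) for MOLM-13 and to -0.76 (SE 0.16) for MONO-MAC-6, where A9 left 0.579 times the DMSO mean. The MONO-MAC-6 difference was -0.59 without DMSO sample 1, and the MOLM-13 difference was 0.50 without its DMSO sample 1. The A9 difference in MONO-MAC-6 minus that in MOLM-13 was -1.50 on the log2 scale, from levels of which those in MOLM-13 were a few TPM. With DMSO alone the mean of SLPI was 2.42 ± 0.901 TPM (MOLM-13) and 231.4 ± 51.5 TPM (MONO-MAC-6), with SD over n = 3, a ratio of 95.4. The gene has 1 transcript in the annotation used, so this sum is the value of that transcript. Listed transcripts that did not match the annotation are outside it.

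**Figure D1:**
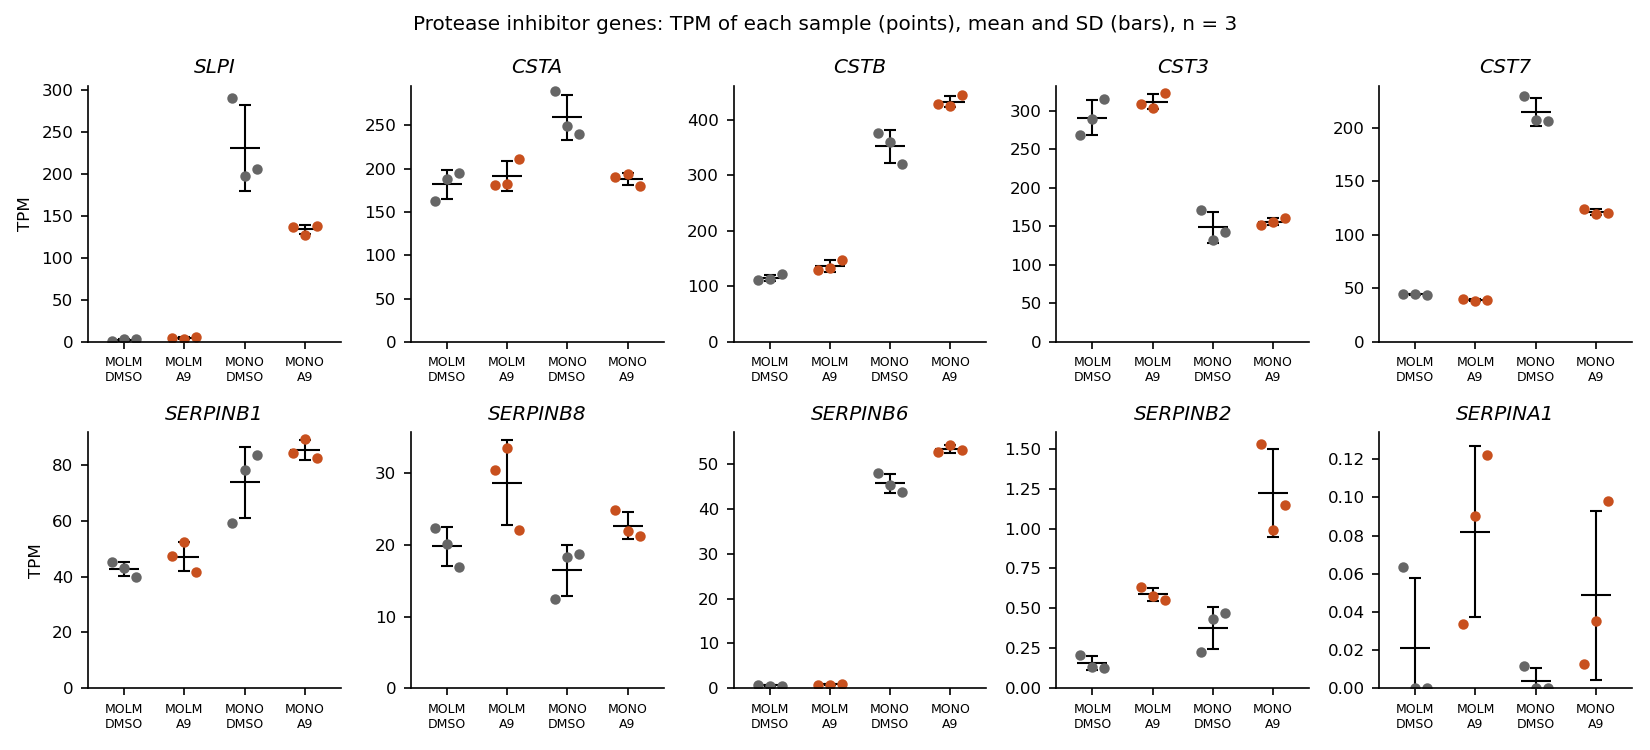
TPM (vertical axes, each from 0) of the 10 inhibitor genes in MOLM-13 (MOLM) and MONO-MAC-6 (MONO) with DMSO (grey) or A9 (orange); points are samples, bars the mean and SD, n = 3. SLPI lies at 127.7 to 290.7 TPM in MONO-MAC-6 and at 1.39 to 5.76 TPM in MOLM-13, and CST7 is lower with A9 in both lines.

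The A9 difference of every gene has to be read against that of all genes. Over all genes tested, the median was -0.05 for MOLM-13 and 0.16 for the MONO-MAC-6 line, and -0.00427 and 0.0291 after median-ratio scaling, which sets the typical gene equal across libraries. Without DMSO sample 1 the MONO-MAC-6 median was 0.03. A gene was tested where a group mean reached 1 TPM, which in MOLM-13 held for 7 of the 10 inhibitors and in MONO-MAC-6 for 9. Samples of A9 and DMSO did not overlap for 3 of the 7 in MOLM-13 (2 higher, 1 lower), where 15.0% of all 11596 genes tested showed this. They did not overlap for 7 of the 9 in MONO-MAC-6 (4 higher, 3 lower), where 37.9% of 12869 genes did. Since these values chose the genes, nothing is read from the counts.

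Among the cystatins, CST7 and CSTA were lower with A9 in MONO-MAC-6, and CSTB was higher in both lines. CST7 (ENSG00000077984, chr20:24949230-24959928, plus strand), the lysosomal cystatin F that restrains cathepsin C, stood at 229.3, 207.1 and 206.3 TPM with DMSO and at 124.0, 119.0 and 120.7 TPM with A9 in MONO-MAC-6. In MOLM-13 it stood at 44.4, 44.9 and 43.9 TPM with DMSO and at 39.7, 37.9 and 39.4 TPM with A9. The groups did not overlap in either line. The log2 difference was -0.81 (SE 0.08) in MONO-MAC-6 and -0.18 (SE 0.06) in MOLM-13. After median-ratio scaling it was -0.97 and -0.14, and without DMSO sample 1 the MONO-MAC-6 difference was -0.765.

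CSTA (ENSG00000121552, chr3:122325244-122341972, plus strand), the cytosolic cystatin A, was 289.0, 248.7 and 239.7 TPM with DMSO and 189.8, 193.9 and 180.2 TPM with A9 in MONO-MAC-6. All A9 samples were lower, with a log2 difference of -0.46 (SE 0.09), -0.61 after scaling and -0.38 without DMSO sample 1. In MOLM-13 the groups overlapped, at 163.0, 187.5 and 195.3 TPM with DMSO and 180.7, 182.1 and 211.2 TPM with A9. There the log2 difference of CSTA was 0.07 (SE 0.10) and ended near 0 without DMSO sample 1. CSTB (ENSG00000160213, chr21:43772511-43776445, minus strand), the cytosolic cystatin B, was 376.9, 359.9 and 320.0 TPM with DMSO and 428.5, 425.5 and 444.2 TPM with A9 in MONO-MAC-6. In MOLM-13 it was 112.1, 112.8 and 121.6 TPM with DMSO and 128.8, 132.2 and 148.1 TPM with A9. Its A9 samples were the higher ones in both lines, by 0.30 (SE 0.09) and 0.24 (SE 0.07) on the log2 scale. After scaling the CSTB difference was 0.15 in MONO-MAC-6 and 0.28 in MOLM-13, and without DMSO sample 1 it was 0.349 in MONO-MAC-6.

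CST3 (ENSG00000101439, chr20:23626706-23638473, minus strand), the secreted cystatin C, overlapped between the groups in both lines. It was 269.4, 289.9 and 315.0 TPM with DMSO and 308.9, 303.7 and 322.7 TPM with A9 in MOLM-13. In MONO-MAC-6 it was 171.4, 131.9 and 142.6 TPM with DMSO and 151.4, 155.8 and 160.5 TPM with A9. The log2 difference of CST3 was 0.10 (SE 0.07) for MOLM-13 and 0.08 (SE 0.11) for MONO-MAC-6, and the latter turned to -0.07 after scaling. Summed over the 4 cystatins, MONO-MAC-6 samples held 908.5 to 1066.6 TPM with DMSO and 893.7 to 905.7 TPM with A9, and MOLM-13 samples 589.0 to 675.8 and 655.9 to 721.4 TPM.

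**Figure D2:**
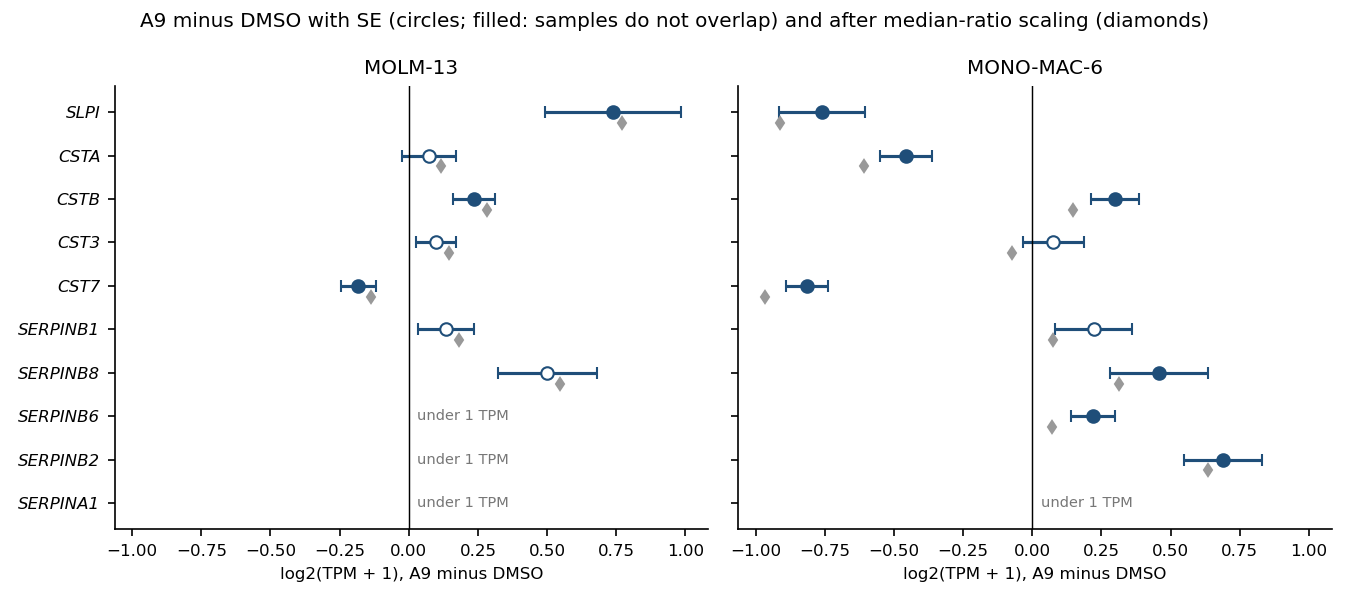
Difference of A9 minus DMSO in log2(TPM + 1) (horizontal axes) for each inhibitor gene in both lines, with its SE; filled circles mark genes whose samples did not overlap, and diamonds give the difference after median-ratio scaling. SLPI lies at 0.74 in MOLM-13 and at -0.76 in MONO-MAC-6, and the diamond of CST3 in MONO-MAC-6 lies on the other side of 0 from its circle.

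The clade B serpins had higher means with A9 than with DMSO in both lines. SERPINB8 (ENSG00000166401, chr18:63969925-64019779, plus strand), an intracellular serpin that inhibits furin, was 22.4, 20.1 and 16.9 TPM with DMSO and 30.4, 33.5 and 22.1 TPM with A9 in MOLM-13. The lowest A9 sample lay just under the highest DMSO sample there, and the log2 difference was 0.50 (SE 0.18). In MONO-MAC-6 SERPINB8 was 12.4, 18.3 and 18.7 TPM with DMSO and 24.8, 22.0 and 21.3 TPM with A9, with no overlap and a log2 difference of 0.46 (SE 0.18). DMSO sample 1 was the lowest, and without it the difference in MONO-MAC-6 was 0.28.

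SERPINB2 (ENSG00000197632, chr18:63871692-63903890, plus strand), the plasminogen activator inhibitor PAI-2 of stimulated monocytes, was near the lower limit throughout. It was 0.209, 0.134 and 0.128 TPM with DMSO and 0.633, 0.580 and 0.555 TPM with A9 in MOLM-13. In MONO-MAC-6 it was 0.229, 0.432 and 0.473 TPM with DMSO and 1.53, 0.992 and 1.15 TPM with A9. All A9 samples were the higher ones in both lines, but only the MONO-MAC-6 A9 mean reached 1 TPM, so the gene entered the fit through the group where it is high. The log2 difference in MONO-MAC-6 was 0.69 (SE 0.14), and 0.609 without DMSO sample 1. It was 1.49 with a pseudocount of 0.1 in place of 1, since the size of a change at this level depends on what is added.

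SERPINB6 (ENSG00000124570, chr6:2948159-2972165, minus strand), an intracellular inhibitor of cathepsin G among others, was 47.9, 45.3 and 43.8 TPM with DMSO and 52.6, 54.3 and 53.0 TPM with A9 in MONO-MAC-6. Its samples did not overlap, and the log2 difference of 0.22 (SE 0.08) was 0.07 after scaling and 0.254 without DMSO sample 1. In MOLM-13 it was under 1 TPM, at 0.600 to 0.831 TPM with DMSO and 0.831 to 0.900 TPM with A9. SERPINB1 (ENSG00000021355, chr6:2832332-2842006, minus strand), the leukocyte inhibitor of elastase, cathepsin G and proteinase 3, overlapped between the groups in both lines. It was 45.2, 43.0 and 40.0 TPM with DMSO and 47.4, 52.2 and 41.8 TPM with A9 in MOLM-13. In MONO-MAC-6 SERPINB1 was 59.2, 78.3 and 83.6 TPM with DMSO and 84.3, 89.1 and 82.4 TPM with A9, a log2 difference of 0.22 (SE 0.14) that was 0.07 without DMSO sample 1. SERPINA1 (ENSG00000197249, chr14:94376747-94390693, minus strand), the plasma inhibitor of elastase named alpha-1 antitrypsin, was at most 0.122 TPM in any sample and was listed at 0 in DMSO samples 2 and 3 of both lines. Close relatives among the clade B serpins share sequence, and the files do not say how reads that fit several genes were divided.

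Without A9, levels differed between the lines for most of the inhibitors that could be tested, as they did for most genes, and this contrast had not chosen any of them except SLPI. Of the 9 others, 8 were tested between the DMSO groups, and 5 were higher and 1 lower in MONO-MAC-6 (limma, adjusted over all genes tested). Among all 13410 genes tested, 35.9% were higher and 22.1% lower in this contrast, so the count says nothing particular about the inhibitors. SERPINB6 averaged 45.7 ± 2.07 TPM in MONO-MAC-6 and 0.685 ± 0.127 TPM in MOLM-13 (SD, n = 3), a ratio of 66.7. It entered the fit through MONO-MAC-6, where it is high, as SERPINB2 did, so its call is not read as support. CST7 was 4.83 times as high in MONO-MAC-6 (limma adjusted p = 1.56e-10) and CSTB 3.05 times (limma adjusted p = 1.78e-08). SERPINB1 was higher by 0.76 on the log2 scale (limma adjusted p = 0.000363) and CSTA by 0.51 (limma adjusted p = 0.000931). CST3 was the exception, with a level 1.96 times as high in MOLM-13 (limma adjusted p = 5.49e-06). SERPINB2 (limma adjusted p = 0.0635) and SERPINB8 (limma adjusted p = 0.25) did not pass the threshold of 0.05, and SERPINA1 was too low to test. After median-ratio scaling CSTA no longer passed (limma adjusted p = 0.087), while SERPINB8, lower in MONO-MAC-6, did (limma adjusted p = 0.00705), as did SERPINB2 (limma adjusted p = 0.0482).

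In order of level with DMSO, MOLM-13 had CST3 (291.4 TPM), CSTA (182.0), CSTB (115.5), CST7 (44.4), SERPINB1 (42.7), SERPINB8 (19.8) and SLPI (2.42), followed by genes under 1 TPM. CST7 and SERPINB1 overlapped in that order, and the other neighbours did not. In MONO-MAC-6 the order was CSTB (352.3 TPM), CSTA (259.1), SLPI (231.4), CST7 (214.2), CST3 (148.6), SERPINB1 (73.7), SERPINB6 (45.7), SERPINB8 (16.5) and SERPINB2 (0.378). The range of SLPI overlapped those of CSTA and of CST7 there, while CSTA and CST7 lay apart. With A9, SLPI and CST7 stood at 134.1 and 121.3 TPM in MONO-MAC-6, below CST3 at 155.9 TPM.

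The transcripts behind these sums were few for the cystatins and many for SERPINB6. CST7, like SLPI, has 1 annotated transcript. CSTA-201 held 98.8% to 99.7% of CSTA and CST3-201 held 99.2% to 99.8% of CST3 over the samples. SERPINB1-201, which codes for the protein, held on average 71.8% to 80.5% of SERPINB1 in the 4 groups, and most of the rest was in transcripts without a coding sequence. In MONO-MAC-6, SERPINB6-205 held 42.1% of SERPINB6 with DMSO and 32.2% with A9, in a wide range of 30.3% to 55.5% over the DMSO samples, and SERPINB6-204 held 24.5% and 26.4%. Both were listed at 0 in every MOLM-13 sample. The window printed for SERPINB6 above ends 50 bases past the start site at 2971567, which is the start of SERPINB6-205 in GENCODE. In MOLM-13 the short coding transcript SERPINB6-219 held 41.5% with DMSO and 37.5% with A9 of a sum under 1 TPM. SERPINB8-203 held on average 45.0% to 51.7% of SERPINB8 in the 4 groups, so the same transcript led with and without A9. Of the annotated transcripts, 25 of 26 for SERPINB6 and 3 of 4 for CSTB had a value in the tables, and all for the other 8 genes.

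**Figure D3:**
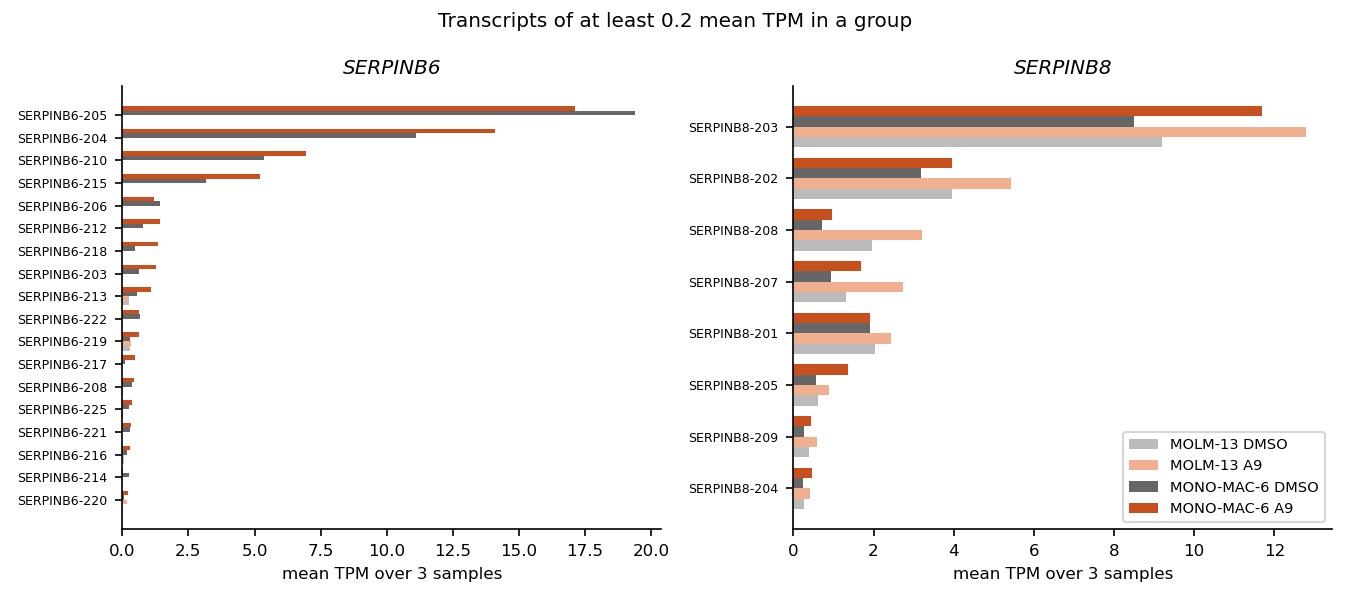
Mean TPM over 3 samples (horizontal axes from 0) of the SERPINB6 and SERPINB8 transcripts that reach 0.2 TPM in a group, by line and treatment. Only the MONO-MAC-6 bars are visible for SERPINB6-205 and SERPINB6-204, and SERPINB8-203 is the longest bar of SERPINB8 in all 4 groups.

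A wider list held 69 other genes of inhibitor families, from the remaining serpins and cystatins to WAP, Kunitz, Kazal and TIMP families. They are called inhibitors by family, although not each of them blocks a protease, as with the collagen chaperone SERPINH1. In MOLM-13, 10 of them were tested and none passed the threshold in limma; before adjustment, SERPINH1 and SPINT1, 2 genes in all, had p under 0.05. Among all genes tested in MOLM-13, 0.0862% were called higher and 0.0345% lower. Of the 19 testable in MONO-MAC-6, 2 were higher and 1 lower, against 2.51% of all genes higher and 0.855% lower. The list had a median log2 difference of 0.03 (MOLM-13) and 0.14 (MONO-MAC-6), beside the medians of all genes of -0.05 and 0.16.

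SERPINI2, a serpin first known from pancreas, rose in MONO-MAC-6 from 8.55, 11.3 and 9.18 TPM to 16.6, 17.7 and 15.6 TPM (log2 difference 0.73, limma adjusted p = 0.044). SERPINB10, a clade B serpin of bone marrow cells, rose from 1.65, 2.05 and 1.89 TPM to 4.86, 3.99 and 4.34 TPM (0.91 on the log2 scale, limma adjusted p = 0.0167). SPINT1, a membrane Kunitz inhibitor of trypsin-like proteases, fell from 5.61, 4.57 and 5.82 TPM to 2.11, 1.90 and 1.57 TPM (-1.15 on the log2 scale, limma adjusted p = 0.0114). In all of these the groups did not overlap, but the calls rest on few samples. SERPINB10 and SERPINI2 passed in 1 of the 6 fits that each left out a sample, the one without DMSO sample 1, with limma adjusted p of up to 0.116 and 0.266. SPINT1 passed in the 3 fits that left out a DMSO sample and missed the threshold when any 1 A9 sample was left out (limma adjusted p up to 0.0908). The A9 difference was compared between the lines for 19 of the list, and 1 passed, beside 1.92% of 13410 genes called higher in MONO-MAC-6 and 1.07% called lower. That gene was SERPINE2, the serpin protease nexin-1, whose mean was 5.47 TPM with DMSO and 2.70 TPM with A9 in MONO-MAC-6. It was at most 0.183 TPM in MOLM-13 and entered the fit through MONO-MAC-6. The call therefore repeats the A9 difference there, which itself missed the threshold (limma adjusted p = 0.059), and shows no difference in response. The call between the lines passed in 2 of the 12 fits that left out a sample, those without MONO-MAC-6 A9 sample 1 or DMSO sample 1.

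Genes of the protease families that these inhibitors act on were examined in a list of 24, with 12 of the serine and 12 of the cysteine kind. They are called proteases by family, which does not show that each product is active. In MOLM-13, 13 were tested and none passed in limma, though 5 were under 0.05 before adjustment. Of the 17 testable in MONO-MAC-6, there were 2 higher and 3 lower, beside the 2.51% of all genes higher and 0.855% lower there, and the list's median log2 difference was -0.06 beside 0.16 for all genes. It was 0.13 in MOLM-13. The 3 lower in MONO-MAC-6 include GZMA, whose mean reached 1 TPM only with DMSO.

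Granule serine proteases, of which SLPI, SERPINB1 and SERPINB6 each inhibit some, did not move together. CTSG, the gene of cathepsin G, fell in MONO-MAC-6 from 691.7, 557.1 and 523.0 TPM to 253.5, 218.6 and 215.4 TPM (-1.36 on the log2 scale, limma adjusted p = 0.00563). PRSS57, an azurophil granule protease, fell there from 394.3, 271.4 and 297.5 TPM to 169.8, 140.5 and 160.9 TPM (-1.01, limma adjusted p = 0.0258). GZMA, granzyme A, fell from 4.08, 3.07 and 2.88 TPM to 0.560, 0.411 and 0.285 TPM (-1.61, limma adjusted p = 0.00502). Its mean reached 1 TPM only with DMSO, so GZMA entered the fit through the group where it is high. The GZMA call is therefore not read as support. CTSG passed in 4 of the 6 fits that left out a sample and missed the threshold without A9 sample 2 or 3 (limma adjusted p up to 0.0523). GZMA missed it without A9 sample 2 (limma adjusted p = 0.0502). Of the fits that left out a sample, PRSS57 passed only in the 1 without DMSO sample 1 (limma adjusted p up to 0.144 in the others). After median-ratio scaling PRSS57 missed the threshold (limma adjusted p = 0.0551), while CTSG and GZMA passed (limma adjusted p = 0.0185 and 0.0102).

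ELANE, the neutrophil elastase gene, did not pass in either line, although its A9 samples were above its DMSO samples in both. In MOLM-13 it was 791.1, 926.6 and 1076.9 TPM with DMSO and 1589.4, 1528.6 and 1608.4 TPM with A9 (0.77 on the log2 scale, limma adjusted p = 0.0877). In MONO-MAC-6 the mean of ELANE was 2342.8 TPM with DMSO and 2835.3 TPM with A9 (0.28 on the log2 scale, limma adjusted p = 0.228). PRTN3, the gene of proteinase 3 and a close relative of ELANE and AZU1, spread widely among the MOLM-13 DMSO samples. They held 3.55, 13.0 and 57.3 TPM, and the A9 samples 323.5, 320.9 and 387.7 TPM. The log2 difference of PRTN3 was 4.47 (SE 0.85, limma adjusted p = 0.156) and missed the threshold. In MONO-MAC-6 PRTN3 was 1437.4, 1062.2 and 1177.6 TPM with DMSO and 1698.7, 1541.0 and 1643.5 TPM with A9 (limma adjusted p = 0.143). Summed over ELANE, CTSG, PRTN3 and AZU1, the MONO-MAC-6 mean was 4451.6 ± 663.3 TPM with DMSO and 4939.3 ± 162.2 TPM with A9, and the MOLM-13 mean 4603.3 ± 356.4 and 4759.6 ± 275.2 TPM (SD, n = 3). The ranges of the sum overlapped between DMSO and A9. It also holds PRTN3 and AZU1, which are not among the SLPI targets named above, so it is not set against SLPI. Of those targets in MONO-MAC-6, the ELANE mean was higher with A9, and the CTSG mean was lower (590.6 TPM with DMSO and 229.2 TPM with A9).

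**Figure D4:**
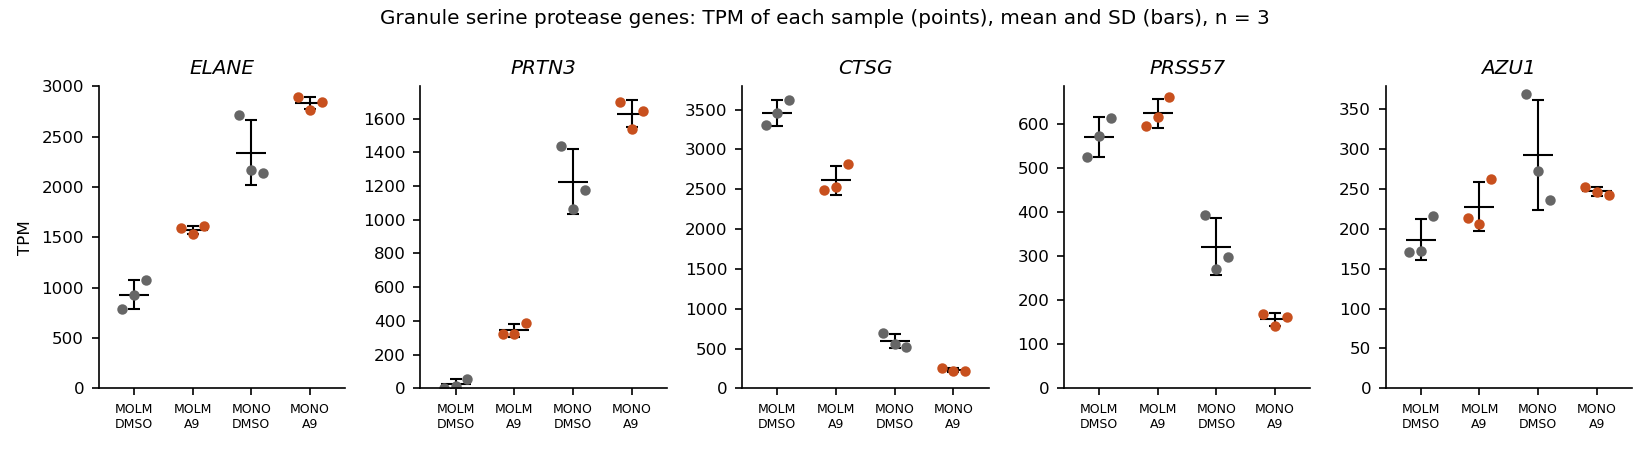
TPM (vertical axes, each from 0) of 5 genes of the granule serine protease family in MOLM-13 (MOLM) and MONO-MAC-6 (MONO) with DMSO (grey) or A9 (orange). Points are samples, bars the mean and SD, n = 3. CTSG is at 215.4 to 253.5 TPM with A9 against 523.0 to 691.7 TPM with DMSO in MONO-MAC-6, and PRTN3 spreads from 3.55 to 57.3 TPM over the MOLM-13 DMSO samples.

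Among the cysteine proteases that cystatins bind, CTSZ and CTSH rose in MONO-MAC-6. CTSZ, the lysosomal carboxypeptidase cathepsin Z, went from 170.0, 204.9 and 217.6 TPM to 290.7, 313.7 and 305.1 TPM (0.62 on the log2 scale, limma adjusted p = 0.036). CTSH, cathepsin H, went from 6.37 to 6.92 TPM over the DMSO samples to 10.2 to 12.6 TPM over the A9 samples (0.72 on the log2 scale, limma adjusted p = 0.0365). Both groups lay apart, but both genes passed in 1 of the 6 fits that left out a sample, the one without DMSO sample 1 (limma adjusted p up to 0.206 and 0.231). After median-ratio scaling CTSZ passed (limma adjusted p = 0.0473) and CTSH did not (limma adjusted p = 0.0939). CTSC, the target of CST7, was 278.3, 276.7 and 276.8 TPM with DMSO and 257.5, 236.3 and 244.2 TPM with A9 in MONO-MAC-6 and did not pass (-0.17 on the log2 scale, limma adjusted p = 0.23). In MOLM-13 the CTSC mean was 140.7 TPM with DMSO and 142.2 TPM with A9.

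The genes whose levels followed SLPI most closely over the 12 samples were DYNLRB1, RAC3, ARL2, SWI5 and EIF1B, each with a Pearson r of 0.996 among 9131 genes compared. The 12 points share 2 lines, and the gap between the lines sets this r: RAC3 averaged 35.2 and 46.0 TPM in MOLM-13 with DMSO and A9, and 182.2 and 167.9 TPM in MONO-MAC-6.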

How the data were processed

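RNA was measured in 36 libraries, 9 for each of 4 groups. The authors deposited TPM, 1 value per Ensembl transcript and library, and kallisto and limma are listed with GRCh38, without versions, per the submitters' processing notes. How the authors set kallisto up is not given in the sources used here, and a share of ambiguous reads between paralogs cannot be recovered. Of 207175 transcripts, 162561 (78.5%) matched GENCODE 29 and held 89.9% to 91.4% of the TPM; these were summed by symbol with pandas 2.3.3 in Python 3.11.15. Libraries with the same first number were averaged to 3 samples per group, since the series states 3 per condition. Genes with a group mean of at least 1 TPM were tested on log2(TPM + 1) with limma 3.58.1 in R 4.3.3 (lmFit, eBayes with trend and robust), with two-sided p-values, Benjamini-Hochberg adjustment across every tested gene and a threshold of 0.05. With 3 samples a group, an exact permutation test cannot reach that threshold. Such a log2 difference understates the change of genes near 1 TPM. Each line was fitted with its 6 samples, and contrasts between lines with all 12.

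The members and gene lists were chosen with earlier results of these data known. The genes named were the 10 inhibitors, from each list up to 5 called genes in each direction with a mean of at least 5 TPM, and the 5 genes most like SLPI. Called genes under that mean (SERPINB10, SPINT1, SERPINE2, GZMA), the 2 uncalled inhibitors, ELANE, PRTN3, AZU1 and CTSC were named after their values were seen. Also tried were 9 libraries as samples, a threshold of 0.01, a pseudocount of 0.1, testing without the filter, a replicate block, median-ratio scaling and leaving out each sample.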

Additional observations from a re-analysis of the deposited data

Results flagged for a closer look

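SLPI moved in opposite directions: all 3 A9 samples were above all DMSO samples in MOLM-13 and below them in MONO-MAC-6, and the A9 differences in log2(TPM + 1) differed by -1.50. This contrast chose the gene, so it was not tested.

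Of 19 other inhibitors and 18 proteases, 5 passed the limma test of the A9 difference between the lines over 12 samples, given as MONO-MAC-6 minus MOLM-13, where 1.92% of all 13410 genes were called higher and 1.07% lower. It was -0.95 for CTSG (limma adjusted p = 0.00829) and -1.14 for PRSS57 (limma adjusted p = 0.00829), genes above 100 TPM in both lines. In MOLM-13 the CTSG mean was 3460.6 TPM with DMSO and 2612.2 TPM with A9, without overlap (limma adjusted p = 0.134). The PRSS57 means there were 570.8 and 624.5 TPM, with overlap. Results of these calls under the other settings are not reported here. The difference between the lines was -0.82 for SERPINE2, -1.61 for GZMA and 0.76 for CTSH, which entered the fit only through MONO-MAC-6. In MOLM-13 the means with DMSO and A9 were 0.122 and 0.141 TPM for SERPINE2, and 0.202 and 0.167 TPM for CTSH, and GZMA was listed at 0 in every sample. These values repeat the A9 differences in MONO-MAC-6 and show no difference in response between the lines. Within MONO-MAC-6, SERPINE2 missed the threshold (limma adjusted p = 0.059).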

How the results depend on the processing

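The inhibitors' own A9 differences kept their direction under the alternatives run for each (scaling was not run for genes under the filter: SERPINA1 in both lines, SERPINB2 and SERPINB6 in MOLM-13), apart from CST3 in MONO-MAC-6, which turned after scaling (-0.07) and in fits that left out a sample (-0.00453 to 0.183), and CSTA in MOLM-13 (-0.00425 to 0.125 when a sample was left out). The count of inhibitors except SLPI that differed between the DMSO groups was 6, and 6 to 7 when each sample was left out in turn; it was 7 with a pseudocount of 0.1, 8 with 9 libraries as samples, and 7 after median-ratio scaling, which kept 5 of the 6 and lost CSTA (limma adjusted p = 0.087); SERPINB2 passed without sample 1 of either MONO-MAC-6 group.

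The counts of list genes called depended more on the setting. With all 9 libraries of a group taken as samples, 3 other inhibitors and 6 proteases were called in MOLM-13, against 0 each, and 11 and 11 in MONO-MAC-6, against 3 and 5; 8 inhibitors, against 1, differed between the lines. At a threshold of 0.01, 0 inhibitors and 2 proteases were called in MONO-MAC-6 and 0 inhibitors between the lines. Without the filter 2 proteases were called in MONO-MAC-6, and with a pseudocount of 0.1 the count between the lines was 0. After median-ratio scaling, 1 inhibitor was called in MOLM-13, 3 proteases in MONO-MAC-6 and 2 inhibitors between the lines. When a sample was left out, MOLM-13 counts stayed at 0, MONO-MAC-6 counts ran from 0 to 7 for inhibitors and from 0 to 11 for proteases, both highest without DMSO sample 1 and both 0 without A9 sample 2, and the count between the lines from 0 to 1.

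Whether sample numbers pair the samples was not settled, and the main fits took them as unpaired. Deviations of same-numbered DMSO and A9 samples correlated at 0.514, -0.0557 and 0.77 in MOLM-13, and those of differently numbered samples at -0.778 to 0.745. In MONO-MAC-6 the same-numbered samples gave -0.0742, 0.178 and -0.229, and the differently numbered ones -0.229 to 0.253. With the number as a replicate block, 2 proteases were called in MOLM-13, 3 proteases and 0 inhibitors in MONO-MAC-6, and 0 inhibitors between the lines. TPM hold no counts, so the limit set by depth is unknown, and genes near 1 TPM (SERPINB2, SERPINB6 in MOLM-13, GZMA) carry the least certain values.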

Other observations

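Without A9, of 19 other inhibitors tested between the DMSO groups, 14 were higher and 2 lower in MONO-MAC-6, and of 18 proteases 13 were higher and 4 lower (limma), where 35.9% of all 13410 genes were higher and 22.1% lower. Some of these genes reached 1 TPM in MONO-MAC-6 alone and had to differ to be tested, so the counts are a description. Named after their values were seen, SERPINH1, the collagen chaperone HSP47, averaged 83.8 TPM in MONO-MAC-6 and 4.20 TPM in MOLM-13 (limma adjusted p = 2.74e-10), and SERPINF1 averaged 36.8 and 6.35 TPM (limma adjusted p = 2.18e-09). CTSB, the gene of cathepsin B and a target of the cystatins, went the other way, with 82.4 TPM in MOLM-13 and 1.11 TPM in MONO-MAC-6 (limma adjusted p = 8.57e-11), while CTSL, cathepsin L, had 3.44 and 37.5 TPM (limma adjusted p = 4.59e-08). CTSB did not overlap between the lines in any sample and lay at 75.0 to 89.2 TPM and at 0.915 to 1.60 TPM with or without A9.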
